A study of Callithrix jacchus with 20 samples.

Results

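The comparison described here set pre-mesendoderm (pre-ME) cells made with CHIR alone against the induced pluripotent stem cells of the common marmoset (cjiPSCs) from which they came. Its samples were chosen by their labels: 2 libraries of pre-ME induced without Activin A (ActA) from cjiPSCs kept in TESR medium and 2 libraries of cjiPSCs in TESR medium, 4 of the 20 libraries of the study. All cells came from 1 line, DPZ_cjiPSC2, so the values describe that line. TESR is TeSR-E8, a feeder-free medium used for primed human stem cells. For the induction, single cells were taken through 24 h in aRB27, a serum-free medium with B-27 supplement, with 3 μM CHIR, an inhibitor of the kinase GSK3, and 10 μM of the ROCK inhibitor Y-27632. ActA was at 0 ng/ml in these cells and at 100 ng/ml in the pre-ME with ActA, which is used below only beside results of this comparison. The cjiPSCs did not go through this induction, though the methods give them 10 μM Y-27632 for 1 d after passaging. The coating (Geltrex for cjiPSCs, vitronectin for pre-ME), the base medium, the dissociation and the growth factors of the medium changed together with CHIR. The effect of CHIR cannot be told apart from these. The same pair of conditions from cjiPSCs kept in cjPSCM is used at the end to ask whether the response differed between media. The study derived cjPSCM from a medium for human expanded potential stem cells. It contains CHIR at a lower dose than the induction, the WNT inhibitor IWR-1, LIF, TGFβ and FGF2. The cjiPSCs in cjPSCM were thus already exposed to CHIR. All groups have 2 libraries, which the study calls biological replicates, and in bulk RNA fewer cells of a type and less RNA per cell cannot be told apart.

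GSK3 marks β-catenin for destruction, so its inhibition lets β-catenin enter the nucleus and act with the TCF and LEF factors on WNT target genes. Many of these targets, such as AXIN2, NKD1, NOTUM and RNF43, dampen the pathway again. In the primate embryo WNT and NODAL signals together start the primitive streak, with TBXT, MIXL1 and EOMES among its first genes, while CDX and HOX genes give cells their position along the body axis. ActA is commonly given to cultures in place of NODAL and acts through the same SMAD proteins.

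Values below are normalised counts, the read counts of a gene divided by a size factor of the library, and for each group they are given for replicates 1 and 2 in this order. Fold changes are log2 values from edgeR, pre-ME over cjiPSCs, with their standard error. Adjusted p-values are from edgeR's quasi-likelihood test over all genes, corrected by the Benjamini-Hochberg method. Genes are said to rise or fall where this value was under 0.05, and a change is called large where the log2 fold change was also beyond 2 in either direction. Reads counted on genes numbered 20511950 and 8590205 in the cjiPSCs and 18858625 and 22067099 in pre-ME, so 3 counts correspond to 1.65 and 4.47 normalised counts in the cjiPSCs and to 1.65 and 1.40 in pre-ME. Such a floor covers counting error only. The log2 difference between the cjiPSC replicates had an SD over genes of 0.619, against 0.311 in pre-ME. This spread does not say which replicate deviates. The summed level of 12 mitochondrially encoded genes was 7015 and 16911 in cjiPSCs but 6967 and 6221 in pre-ME. In these genes replicate 2 of the cjiPSCs stood apart. The lists below were counted again without replicate 2 of the cjiPSCs only. The share of counted reads outside annotated genes was 10.6% and 13.3% in cjiPSCs and 20.04% and 20.65% in pre-ME, and its part in the results was not tested.

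Of 25102 genes in the table, 15797 passed the filter on low counts. In pre-ME 2745 of these rose, which is 17.4%, and 3029 fell, which is 19.2%, with a median log2 fold change of -0.03 over all genes tested. Counts of the lists below are to be read against these shares. Large changes were a rise of 717 genes (4.54%) and a fall of 524 genes (3.32%). The libraries of the groups did not overlap for 1239 of these 1241 genes, and for 67.1% of all genes tested. The 1241 genes were chosen by their change in the same libraries, so this separation was largely fixed by the choice. Among the genes with a large rise, 218 had 3 counts or fewer in both cjiPSC libraries, and 70 of those with a large fall had 3 or fewer in both pre-ME libraries. For such genes only a lower bound of the fold change is given. Leaving out either replicate of the cjiPSCs changed which genes had a large change, so these totals are not a fixed set of genes.

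**Figure D1:**
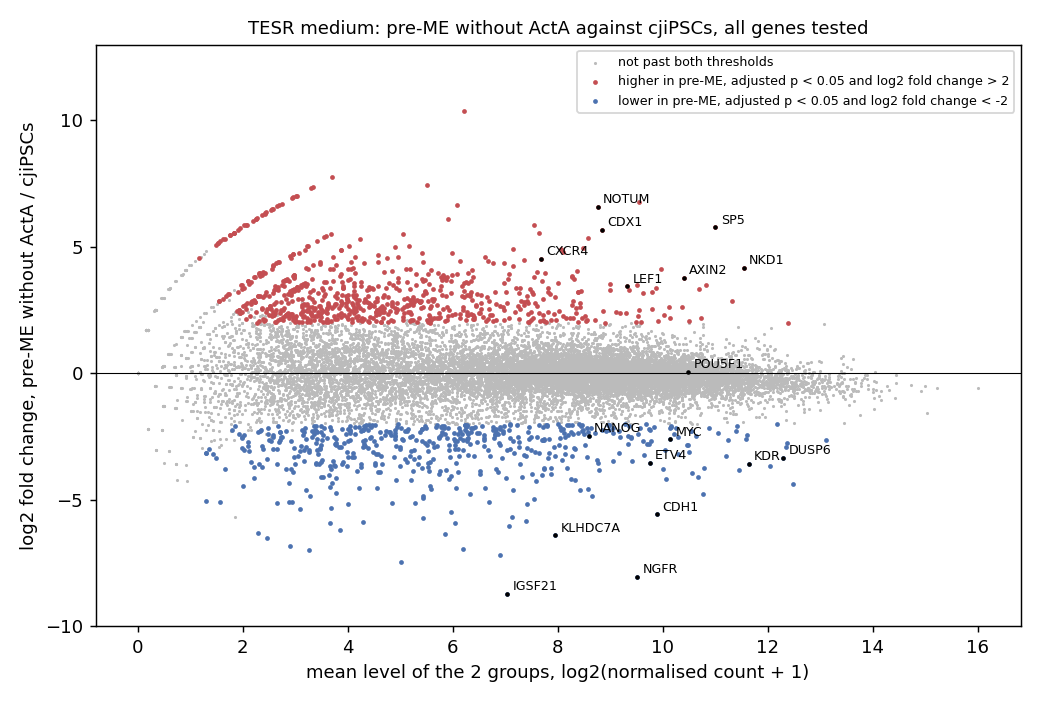
Each point is 1 of 15797 genes, with the mean level of the groups as log2(normalised count + 1) on the horizontal axis and the log2 fold change of pre-ME without ActA over cjiPSCs on the vertical axis. Red points are the 717 genes with a large rise and blue points the 524 with a large fall, and the curved rows of points at the left are genes with few reads in the cjiPSCs. WNT targets such as SP5 and NKD1 lie high at the right, and CDH1, KDR and DUSP6 lie low.

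The labelled cell types were compared with their defining markers first. The pluripotency factors POU5F1 (1049 and 1764 in cjiPSCs and 1435 and 1464 in pre-ME), SOX2 (2708 and 4610.1 in cjiPSCs and 3024 and 3276 in pre-ME) and LIN28A (13998 and 17129.9 in cjiPSCs and 15577 and 14246 in pre-ME) were present in every library and overlapped between the groups, with adjusted p = 0.79, 0.563 and 0.889 (edgeR). The mesendoderm factors TBXT and MIXL1 were low in all 4 libraries. TBXT had 4.41 and 11.9 in cjiPSCs and 14.8 and 7.95 in pre-ME, and MIXL1 had 4.41 and 1.49 in cjiPSCs and 9.33 and 6.08 in pre-ME. RNA of these 2 mesendoderm factors was thus low in the cells labelled pre-ME, while RNA of the 3 pluripotency factors was present in all 4 libraries. The other markers chosen for these cell types did not follow this. RNA of EOMES and EVX1 was present in all 4 libraries, and NANOG and DPPA4 fell in pre-ME, with values given below. The markers together do not settle the label.

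Targets of WNT signalling showed some of the largest rises. Of 19 listed targets 18 were tested, of which 12 rose and 4 fell, 8 and 1 of them with a large change, and their median log2 fold change was 1.72 against -0.03 for all genes. Without replicate 2 of the cjiPSCs 11 rose and 2 fell.

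AXIN2, a scaffold of the complex that destroys β-catenin, had 159.8 and 214 normalised counts in cjiPSCs and 2480.3 and 2554 in pre-ME. Its log2 fold change was 3.79 ± 0.15, with an adjusted p of 1.28e-10. The transcription factor SP5, which represses other targets of the pathway, had 64.5 and 89.3 in cjiPSCs and 3672 and 4380.1 in pre-ME. These levels gave a log2 fold change of 5.77 ± 0.25 (edgeR, adjusted p = 2.28e-10). NOTUM, a secreted enzyme that removes the lipid from WNT ligands, went from 9.37 and 7.45 to 795 and 918, a 96.6-fold rise on the fitted scale. NKD1, which binds Dishevelled, had 279 and 356 in cjiPSCs and 5664 and 5627 in pre-ME, and LEF1, a partner of β-catenin on DNA, 100.3 and 118 in cjiPSCs and 1149.9 and 1185 in pre-ME. In each of these 5 genes both pre-ME libraries lay far above both cjiPSC libraries.

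The ubiquitin ligases that remove Frizzled receptors from the surface rose as well. RNF43 had 6.61 and 11.9 in cjiPSCs and 429.6 and 351 in pre-ME, a log2 fold change of 5.54 ± 0.46, and ZNRF3 had 232 and 316 in cjiPSCs and 1086 and 1059 in pre-ME, a change of 2.00 ± 0.16. TCF7 (log2 fold change 2.66), the WNT antagonist DKK1 (2.39) and APCDD1 (1.44) also rose. Their adjusted p-values were at most 7.32e-05 (edgeR). CCND1, the cyclin D1 gene, had 1574 and 3181 in cjiPSCs and 4996 and 4426 in pre-ME. Its log2 fold change of 1.01 became 0.60 without replicate 1 of the cjiPSCs and 1.57 without replicate 2, with the call kept in both.

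MYC, often listed as a WNT target, went the other way. It had 1080.3 and 2814 in cjiPSCs and 326 and 304 in pre-ME, and fell with a log2 fold change of -2.60 ± 0.29 (edgeR, adjusted p = 5.94e-06). LGR5, a receptor for R-spondins, had 496 and 252 in cjiPSCs and 176 and 124 in pre-ME (log2 fold change -1.34, adjusted p = 0.00211), and this call was lost without replicate 1 of the cjiPSCs (-0.72, adjusted p = 0.071). The pre-ME libraries of both genes lay below both cjiPSC libraries.

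**Figure D2:**
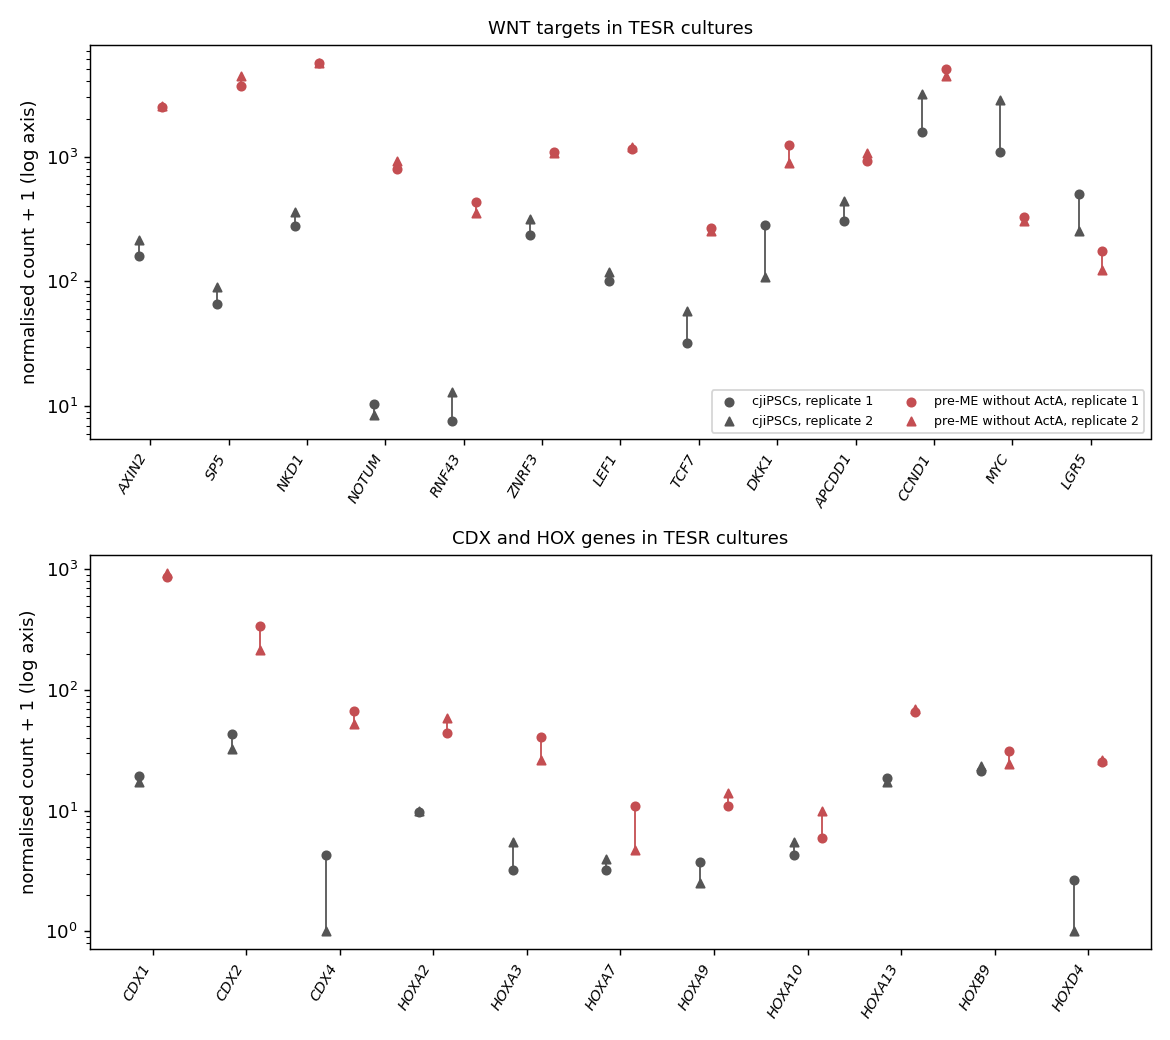
Normalised count + 1 on a log axis of 13 WNT targets (top) and 11 CDX and HOX genes (bottom), with cjiPSCs in grey, pre-ME without ActA in red, circles for replicate 1, triangles for replicate 2 and a line joining the replicates. AXIN2 rose from 159.8 and 214 to 2480.3 and 2554 and CDX1 from 18.2 and 16.4 to 860.2 and 937, while MYC fell.

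Among the ligands of the pathway, 14 of 19 were tested. Of these 3 rose and 3 fell, where 17.4% of all genes tested rose and 19.2% fell. WNT5B rose from 129.5 and 136 to 619.9 and 453 (2.03 ± 0.28, adjusted p = 4.39e-05, edgeR). WNT8A, a ligand of the early posterior embryo, had 3.86 and 0 in cjiPSCs and 29.6 and 16.8 in pre-ME and rose with adjusted p = 0.00379. Its log2 fold change of 3.06 became 7.68 without replicate 1 of the cjiPSCs. WNT3, the ligand of the streak, had 7.16 and 5.96 in cjiPSCs and 1.10 and 1.40 in pre-ME, at or below the floor in pre-ME. It fell with an adjusted p of 0.00625, which was 0.0791 without replicate 1 of the cjiPSCs.

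Of 33 receptors and secreted modulators 28 were tested, and 3 rose and 10 fell, where 17.4% of all genes tested rose and 19.2% fell. FZD8, a Frizzled receptor, had 848 and 895 in cjiPSCs and 208 and 178 in pre-ME, a log2 fold change of -2.16 ± 0.13. The co-receptor LRP5 fell from 3567 and 5106 to 1935 and 1804 and the repressor TCF7L1 from 1285 and 2487 to 817 and 751. SFRP1, a secreted WNT antagonist, fell from 18436 and 17118 to 4377 and 4749.7. The receptor ROR2, which takes WNT5 ligands, rose from 447 and 657 to 1084 and 919. The log2 fold change of TCF7L1 was -1.24 and became -0.72 without replicate 2 of the cjiPSCs.

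All 3 CDX genes, which encode homeobox factors of the posterior embryo, rose with a large change. CDX1 had 18.2 and 16.4 in cjiPSCs and 860.2 and 937 in pre-ME, with a log2 fold change of 5.67 ± 0.30 (edgeR, adjusted p = 1.65e-09). CDX2 had 42.4 and 31.3 in cjiPSCs and 336 and 213 in pre-ME (2.85 ± 0.34), and CDX4 had 3.31 and 0 in cjiPSCs and 65.8 and 51.5 in pre-ME (4.59 ± 0.60). The fitted change of CDX4 was 9.02 without replicate 1 of the cjiPSCs, and replicate 2 had no read. No pre-ME library overlapped with a cjiPSC library in these genes.

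Of 39 listed HOX genes, the transcription factors that mark position along the body axis, 20 were tested. Of these 10 rose and none fell, 8 with a large change, and the median was 1.77, or 1.47 with genes at the floor set to their bound, against -0.03 for all genes. By cluster, 5 of 8 tested HOXA genes, 2 of 5 HOXB, 1 of 3 HOXC and 2 of 4 HOXD genes rose. The calls of HOXB1, HOXB3, HOXC4 and HOXD3 were lost when a single library was left out, as was that of HOXA2 below. Summed over each cluster, cjiPSCs had 72.7 and 70.0 for HOXA, 54.0 and 49.1 for HOXB, 18.2 and 17.9 for HOXC and 7.71 and 10.4 for HOXD. Of the 20 tested genes 8 were at the floor in either group. From such low starting levels a fall could hardly be detected, so the lack of falls says little. At an unadjusted p under 0.05, 0 tested HOX genes were lower in edgeR and 0 in DESeq2. The counts without replicate 2 of the cjiPSCs were 7 and 0.

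Genes at both ends of the HOXA cluster rose. At the anterior end HOXA3 had 2.20 and 4.47 in cjiPSCs and 40.0 and 25.3 in pre-ME, a log2 fold change of 3.45 ± 0.63 (edgeR, adjusted p = 0.000486). HOXA2 had 8.81 and 8.93 in cjiPSCs and 42.8 and 58.0 in pre-ME. HOXA2 kept adjusted p = 0.00627 with all libraries and had 0.0615 without replicate 1 of the cjiPSCs. At the other end of the cluster HOXA13 rose from 17.6 and 16.4 to 65.3 and 68.3 and HOXA9 from 2.75 and 1.49 to 9.88 and 13.1. HOXD4 was at the floor in cjiPSCs (1.65 and 0) and had 24.1 and 25.3 in pre-ME, at least 8.07-fold higher. HOXB9 (20.4 and 22.3 in cjiPSCs and 30.2 and 23.4 in pre-ME) and HOXA10 (3.31 and 4.47 in cjiPSCs and 4.94 and 8.89 in pre-ME) did not pass the test, with adjusted p = 0.578 and 0.275. In pre-ME with ActA, HOXA9 had 329 and 302 and HOXA10 had 124 and 110.4.

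Of 15 primitive streak factors 12 were tested, and 2 rose and 3 fell, where 17.4% of all genes tested rose and 19.2% fell. EOMES, a T-box factor of mesoderm and endoderm, had 329 and 536 in cjiPSCs and 169 and 142 in pre-ME. It fell with a log2 fold change of -1.45 ± 0.35 (edgeR, adjusted p = 0.00427), but not without replicate 2 of the cjiPSCs (adjusted p = 0.0508) or replicate 2 of pre-ME (0.0519). LHX1, which acts in the head organiser, had 339 and 554 in cjiPSCs and 54.3 and 37.4 in pre-ME and a large fall of -3.26 ± 0.76. EVX1, a factor of the posterior streak, had 210.4 and 379.7 in cjiPSCs and 547 and 403 in pre-ME, which did not pass the test (adjusted p = 0.202). In EOMES and LHX1 both cjiPSC libraries lay above both pre-ME libraries, so RNA of these streak factors was present before the induction.

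FGF8, a growth factor of the streak and tail bud, was the member with the largest rise. It had 11.6 and 10.4 in cjiPSCs and 173 and 105 in pre-ME and a log2 fold change of 3.62 ± 0.39 (edgeR, adjusted p = 3.53e-06). FOXH1, the partner of SMAD2 on DNA, rose from 267 and 346 to 486 and 469. HAND1 (9.92 and 10.4 in cjiPSCs and 14.8 and 10.3 in pre-ME) and TBX6 (2.75 and 2.98 in cjiPSCs and 4.94 and 10.3 in pre-ME) did not pass the test, and GSC was too low to be tested. With ActA in the same induction, TBXT had 55.3 and 31.9, MIXL1 87.6 and 95.5, EOMES 641 and 267 and FGF8 825 and 832. The log2 difference with against without ActA was 3.56 ± 0.38 in MIXL1 and 2.58 ± 0.28 in FGF8 (edgeR, adjusted p = 1.21e-05 and 1.46e-05). Calls of this difference in TBXT and EOMES were lost without either pre-ME library without ActA or without replicate 1 with ActA. Without the latter, the log2 differences were 1.49 in TBXT and 0.78 in EOMES. These comparisons share the pre-ME libraries without ActA.

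The pluripotency list split. Of 24 genes 20 were tested, 5 rose, 6 fell and 9 did not pass the test, with a median of -0.04. Among the genes that fell were NANOG, UTF1, DPPA4 and PRDM14, which are active in primed pluripotent cells. NANOG had 669 and 633 in cjiPSCs and 117 and 119 in pre-ME, a log2 fold change of -2.46 ± 0.28 (edgeR, adjusted p = 7.49e-06). UTF1 had 72.2 and 168 in cjiPSCs and 19.2 and 19.2 in pre-ME and DPPA4 1547 and 1797 in cjiPSCs and 719 and 679.8 in pre-ME. PRDM14 (44.1 and 52.1 in cjiPSCs and 12.6 and 6.08 in pre-ME) had adjusted p = 0.016, which became 0.0509 without replicate 2 of the cjiPSCs and 0.139 without replicate 2 of pre-ME. With ActA NANOG had 1052 and 1106.

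Other members rose. SALL4, a zinc finger factor, had 656 and 869.6 in cjiPSCs and 1998 and 1997 in pre-ME (1.41 ± 0.19). ZFP42 (REX1) went from 269.9 and 342 to 563 and 525. KLF4, a factor of naive pluripotency, had 3.31 and 11.9 in cjiPSCs and 26.3 and 22.5 in pre-ME. Its log2 fold change of 2.02 was 1.05 without replicate 1 of the cjiPSCs and the call was lost (adjusted p = 0.0892). OTX2 was low throughout (3.86 and 5.96 in cjiPSCs and 26.9 and 13.6 in pre-ME), and its call was lost without either cjiPSC library or replicate 1 of pre-ME, with adjusted p-values of 0.303, 0.1 and 0.227.

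CDH1 (E-cadherin), the adhesion protein of epithelial and primed pluripotent cells, fell to a few percent of its level. It had 1710.5 and 2012 normalised counts in cjiPSCs and 34.0 and 42.6 in pre-ME, 47.8-fold lower on the fitted scale (log2 fold change -5.58 ± 0.24, adjusted p = 4.15e-10, edgeR). CDH3 (P-cadherin) fell from 1953 and 3117 to 832 and 750.4. CDH2 (N-cadherin) had 4220.2 and 3919 in cjiPSCs and 5042 and 5719 in pre-ME and did not pass the test (adjusted p = 0.065). Of 23 junction and epithelial-mesenchymal transition genes tested, 4 rose and 8 fell. Members did not move in one direction: of the repressors of CDH1, ZEB2 rose from 489 and 456 to 926 and 1042, while ZEB1 fell from 878 and 761 to 434 and 469 and SNAI1 from 138 and 142 to 76.3 and 57.1. Without replicate 2 of pre-ME SNAI1 had adjusted p = 0.062. Vimentin (VIM) fell from 37929 and 61659.5 to 17428 and 16233.

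Most feedback genes of FGF and ERK signalling fell. All 18 were tested, 12 fell, 3 rose and 3 did not pass the test, with 5 large falls, 1 large rise and a median of -1.19 against -0.03 for all genes. Without replicate 2 of the cjiPSCs 12 fell and 1 rose.

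DUSP6, the phosphatase that inactivates ERK, had 9708 and 8571 normalised counts in cjiPSCs and 924 and 855 in pre-ME. Its log2 fold change was -3.35 ± 0.17 (edgeR, adjusted p = 1.03e-09). SPRY4, a Sprouty inhibitor of receptor signalling, had 5402 and 5043 in cjiPSCs and 418 and 322 in pre-ME, a change of -3.81 ± 0.21. In both genes the cjiPSC libraries were the high ones. SPRY1 fell from 2102 and 1572 to 405 and 416, PHLDA1 from 3510.2 and 5430.5 to 981 and 846 and DUSP4 from 1333 and 1531 to 522 and 493. The ETS factors ETV4 (1372 and 1793 in cjiPSCs and 161 and 108 in pre-ME) and ETV5 (2786 and 2369 in cjiPSCs and 383 and 213 in pre-ME), which transmit FGF signals, had log2 fold changes of -3.54 and -3.11. ETV4 is counted in the pluripotency list. ETV1, the other ETS factor of the FGF and ERK list, rose with a log2 fold change of 0.73. The call of ETV1 was lost without replicate 2 of the cjiPSCs or of pre-ME.

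The early targets of ERK signalling did not move in one direction. FOSL1 fell with a log2 fold change of -1.95, which became -0.53 without replicate 2 of the cjiPSCs. Its call was lost without that library or without replicate 2 of pre-ME. FOS, an immediate early target, rose clearly. It had 54.0 and 80.4 in cjiPSCs and 738 and 467 in pre-ME, a log2 fold change of 3.23 ± 0.48 (edgeR, adjusted p = 9.87e-05), and FOSB, not in the list, had 5.51 and 7.45 in cjiPSCs and 496 and 234 in pre-ME. EGR1 had 977 and 1456 in cjiPSCs and 2780.4 and 2576 in pre-ME, with adjusted p = 0.0427, and this call was lost without any 1 of the 4 libraries (adjusted p of 0.0648 to 0.212). With ActA DUSP6 had 3134 and 3791 and SPRY4 2786 and 2803, higher than without ActA by 1.96 ± 0.16 and 2.92 ± 0.20 (log2, adjusted p = 9.8e-07 and 2.85e-07, edgeR).

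Genes of the NODAL and TGF-β response also fell. Of 17 listed genes 14 were tested, 8 fell and 1 rose, with 4 large falls and a median of -1.07, or -1.16 with the genes at the floor set to their bound. Without replicate 2 of the cjiPSCs the counts were the same, 8 and 1. PMEPA1, which restrains SMAD signalling, had 100.3 and 143 in cjiPSCs and 6.04 and 13.6 in pre-ME, a log2 fold change of -3.54 ± 0.45 (edgeR, adjusted p = 2.13e-05). SKIL, another SMAD inhibitor, had 1038 and 639 in cjiPSCs and 274 and 234 in pre-ME (-1.73 ± 0.21).

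The ligand genes TGFB1 (173 and 200 in cjiPSCs and 32.9 and 41.2 in pre-ME) and INHBA, the subunit of ActA itself (68.3 and 98.3 in cjiPSCs and 4.39 and 8.89 in pre-ME), had large falls as well. FST (follistatin), which binds and blocks activin, was the member that rose, from 2265 and 1532 to 5975 and 7296 (adjusted p = 0.00153, edgeR). NODAL had 1.10 and 0 in cjiPSCs and 1.10 and 2.34 in pre-ME, which is at the floor, and no fold change is given. SMAD7 (188 and 234 in cjiPSCs and 161 and 124 in pre-ME) did not pass the test. In pre-ME with ActA, NODAL had 564 and 228, PMEPA1 284 and 248 and SKIL 1918 and 1726. Of the 14 genes 6 were higher with ActA at both thresholds, where 1.43% of all genes tested were higher and 0.57% lower.

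**Figure D3:**
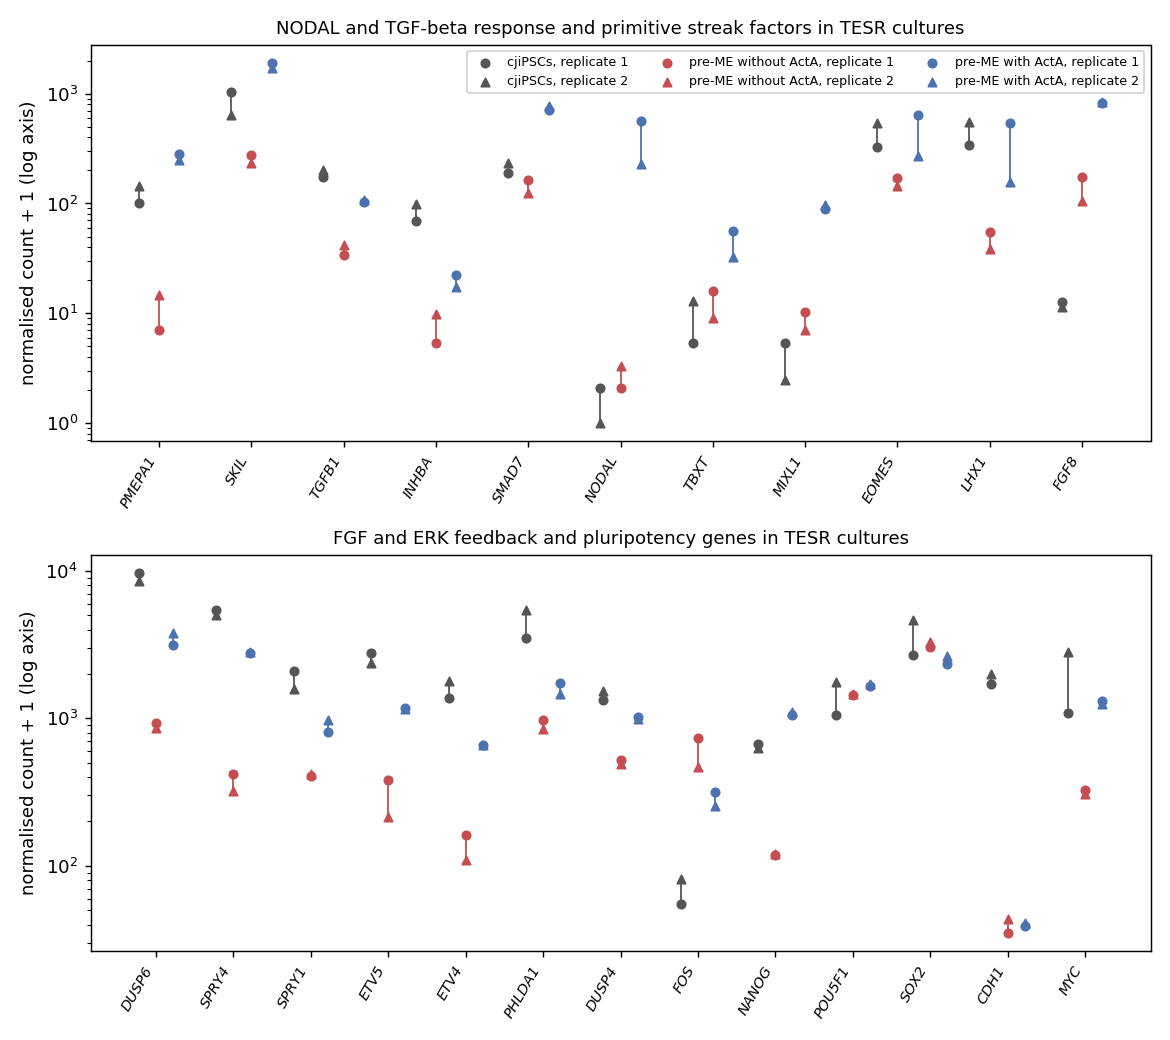
Normalised count + 1 on a log axis for TESR cultures, with cjiPSCs in grey, pre-ME without ActA in red and pre-ME with ActA in blue, circles for replicate 1, triangles for replicate 2 and a line joining them. PMEPA1, DUSP6 and SPRY4 were lower without ActA than in cjiPSCs and higher again with ActA, NODAL was high with ActA only among these 3 groups, and CDH1 was low in both kinds of pre-ME.

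Targets of BMP signalling did not move in one direction, with 4 of 16 tested genes rising and 4 falling, or 3 and 2 without replicate 2 of the cjiPSCs. MSX1, a homeobox factor, had 14.3 and 26.8 in cjiPSCs and 855 and 633 in pre-ME, a log2 fold change of 5.34 ± 0.32 (edgeR, adjusted p = 8.32e-09). DLX5 rose from 3.86 and 1.49 to 20.3 and 19.2 and ID2 from 668 and 567 to 1475 and 1332. ID3, a direct SMAD target, fell from 4487 and 4512 to 2104 and 1539, and ID1 (1296 and 1511 in cjiPSCs and 1512 and 704 in pre-ME) did not pass the test. BMP4 itself, listed with the WNT targets, had 506 and 968 in cjiPSCs and 353 and 224 in pre-ME (adjusted p = 0.00818), with 0.124 without replicate 2 of the cjiPSCs and 0.1 without replicate 2 of pre-ME.

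Of 14 tested genes of retinoic acid signalling 3 rose and 3 fell, where 17.4% of all genes tested rose and 19.2% fell. The binding protein CRABP1 rose from 24.2 and 10.4 to 141 and 191 and the receptor RARB from 137 and 165 to 464 and 568. ALDH1A3, which makes retinoic acid, fell from 45.7 and 40.2 to 3.84 and 1.87 and CYP26B1, which degrades it, from 95.3 and 119 to 20.9 and 19.6. CRABP2 had 2089 and 2168 in cjiPSCs and 8577 and 8415 in pre-ME, with adjusted p = 0.0122. This became 0.0618 and 0.0667 without cjiPSC replicate 1 or 2.

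In the NOTCH pathway 3 of 19 tested genes rose and 6 fell, where 17.4% of all genes tested rose and 19.2% fell. The ligand DLL1 rose from 34.1 and 31.3 to 242 and 209.6 (2.77 ± 0.30, adjusted p = 4.3e-06, edgeR) and JAG1 from 2266 and 2639 to 5532 and 5059.9. The ligand DLL4 fell from 38.6 and 28.3 to 2.74 and 2.34 and the target HEY1 from 2157 and 1608 to 246 and 208 (-3.05 ± 0.15). HES1, another target, had 232 and 347 in cjiPSCs and 124 and 41.2 in pre-ME. Its log2 fold change of -1.79 was -2.78 without replicate 1 of pre-ME and -1.19 without replicate 2.

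Factors of the nervous system were split, with 5 of 19 tested genes rising and 5 falling. ZIC1, a factor of the dorsal neural plate, was at the floor in cjiPSCs (1.10 and 1.49) and had 113 and 152 in pre-ME, at least 43.3-fold higher. POU3F2 rose from 43.0 and 41.7 to 134 and 174. ELAVL4, an RNA-binding protein of neurons, fell from 341 and 200 to 7.68 and 14.0, NKX2-2 from 272 and 326 to 41.7 and 33.7 and PAX8 from 357 and 371 to 31.8 and 82.3. PAX6 (17.1 and 25.3 in cjiPSCs and 17.0 and 18.7 in pre-ME) did not pass the test. Of 8 tested factors of the neural crest and dorsal tube 3 rose and 2 fell. PAX3 rose from 3.31 and 8.93 to 77.4 and 98.2, while SOX9 fell from 468 and 764 to 168 and 209.6 and TFAP2B from 454 and 540.5 to 48.3 and 81.9.

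Of 23 tested mesoderm and mesenchyme genes 8 fell, 2 rose and 13 did not pass the test, with a median of -0.82, where 19.2% of all genes tested fell and 17.4% rose. Of the 8 falls 6 were large, against 3.32% of all genes. KDR, the VEGF receptor of vascular progenitors, had 6555 and 5182 in cjiPSCs and 454 and 527 in pre-ME, a log2 fold change of -3.57 ± 0.20 (edgeR, adjusted p = 5.14e-09). TBX1, a factor of pharyngeal mesoderm, had 868 and 1632 in cjiPSCs and 109.7 and 109.9 in pre-ME (-3.48 ± 0.37), and SCX, of tendon precursors, 304 and 417 in cjiPSCs and 11.5 and 11.2 in pre-ME (-4.95 ± 0.37). BMPER fell from 136 and 171 to 6.58 and 4.21 and MEOX2 from 33.6 and 47.6 to 2.74 and 3.74. In these 5 genes the cjiPSC libraries were the high ones. Leaving out replicate 2 of the cjiPSCs left 6 falls and 2 rises.

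The summed levels of the blood and endothelial, fibroblast and trophoblast lists were higher in the starting cells. Those of the neural factors overlapped, with 5551 and 6975 in cjiPSCs and 5816.5 and 7254 in pre-ME. Those of the endoderm factors were higher in pre-ME, with 492 and 721 in cjiPSCs and 778 and 810 in pre-ME. That sum includes CXCR4, whose rise is given below and is larger than the gain of the sum. The median log2 fold change of the endoderm list was -0.27, so its members did not rise as a set. Of 12 tested blood and endothelial markers 6 fell and none rose in edgeR, with the same counts without replicate 2 of the cjiPSCs. The summed level of the 14 listed genes was 3781 and 3441 in cjiPSCs and 1253 and 1159 in pre-ME. PECAM1 fell from 1682 and 1565 to 747 and 622, the endothelial cadherin CDH5 from 671 and 619 to 76.3 and 105 and TAL1, a factor of blood progenitors, from 516 and 389 to 54.9 and 72.5. At an unadjusted p under 0.05, 1 of these markers was higher in pre-ME in edgeR and 0 in DESeq2. Of 10 fibroblast markers 3 fell and none rose (unadjusted, 0 higher in edgeR and 1 in DESeq2), and 2 fell without replicate 2 of the cjiPSCs, where 19.2% of all genes tested fell. THY1 went from 874 and 1243 to 249 and 237, and the summed level of the list went from 7865 and 8467 to 4588 and 4542. Of 3 tested trophoblast markers 2 fell and 1 rose (1 and 0 without replicate 2 of the cjiPSCs), PGF from 533 and 680.5 to 36.8 and 27.6 among them, and the sum went from 3914 and 4927 to 2681 and 2734. The study also ties PECAM1 to naive and formative and THY1 to primed pluripotency, so these genes are not particular to the other cell types. The part that such cells have in the changes of the mesoderm list was not tested.

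Of 11 tested endoderm factors 2 rose and 2 fell, near the shares of all genes tested, where 17.4% rose and 19.2% fell. CXCR4, a chemokine receptor of definitive endoderm and migrating cells, had 14.9 and 20.9 in cjiPSCs and 294 and 482 in pre-ME, a log2 fold change of 4.53 ± 0.33 (edgeR, adjusted p = 8.09e-08). SOX17 (93.1 and 169.8 in cjiPSCs and 100.4 and 67.8 in pre-ME) and GATA6 (136 and 182 in cjiPSCs and 132 and 82.8 in pre-ME) did not pass the test. Of 13 tested genes of primate germ cells 3 rose and 1 fell, or 2 and 3 without replicate 2 of the cjiPSCs. DND1, an RNA-binding protein of germ cells, rose from 8.81 and 10.4 to 29.1 and 38.8. TFAP2C had 7.16 and 10.4 in cjiPSCs and 30.17 and 21.99 in pre-ME, and its adjusted p of 0.0354 lost its call without any 1 of the 4 libraries (0.0552 to 0.245). PRDM1 (BLIMP1) had 1025 and 1030.4 in cjiPSCs and 674 and 580.1 in pre-ME (adjusted p = 0.0139, 0.117 without replicate 2 of pre-ME). Of 9 tested genes of amnion and surface ectoderm, TFAP2A rose from 18.2 and 17.9 to 66.4 and 62.2 and 3 fell. Without replicate 1 of the cjiPSCs TFAP2A had adjusted p = 0.0724.

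Genes of cholesterol synthesis and uptake fell by a moderate amount almost throughout. Of 26 listed genes 25 were tested, 23 fell and none rose, none with a large change, and the median was -1.0 against -0.03 for all genes. The number that fell was 22 without replicate 2 of the cjiPSCs. At an unadjusted p under 0.05, 0 genes of the list were higher in edgeR and 0 in DESeq2.

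HMGCS1, which opens the pathway, had 9306 and 8383 in cjiPSCs and 3822 and 4429.7 in pre-ME, a log2 fold change of -1.09 ± 0.14 (edgeR, adjusted p = 3.4e-05). CYP51A1, a demethylase of the later steps, had 3894 and 3766 in cjiPSCs and 1249 and 1479 in pre-ME (-1.48 ± 0.13). INSIG1, a sterol sensor, had 714 and 882 in cjiPSCs and 241 and 276 in pre-ME (-1.61 ± 0.16). In these 3 genes both pre-ME libraries lay below both cjiPSC libraries.

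In glycolysis and hypoxia 5 of 29 tested genes rose and 9 fell, with a median of -0.33, where 17.4% of all genes tested rose and 19.2% fell. The falls of ALDOA, GPI, PFKM, PFKP and PGK1 and the rise of HK2 lost their calls when a single library was left out. HK1 fell from 1633 and 1864 to 659 and 638, and ENO2 rose from 72.2 and 74.5 to 274 and 244. Of 23 genes of the amino acid and unfolded protein responses 8 rose and 5 fell (9 and 3 without replicate 2 of the cjiPSCs), with ASNS going from 2632 and 2177 to 4082 and 3823 and SLC7A11 from 57.3 and 53.6 to 166 and 138. The chaperone HSPA5 fell from 13158 and 14119 to 8579 and 8255.

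Of 17 tested p53 targets 5 fell and 2 rose, where 19.2% of all genes tested fell and 17.4% rose. CDKN1A (p21), which stops the cell cycle, had 446 and 673 in cjiPSCs and 134 and 79.1 in pre-ME, a log2 fold change of -2.37 ± 0.31 (edgeR, adjusted p = 3.25e-05), and PMAIP1, which promotes cell death, 514 and 406 in cjiPSCs and 105 and 75.3 in pre-ME. Of 18 G1 cyclins and inhibitors 4 rose and 3 fell. Of 22 proliferation genes 4 rose and 2 fell (2 and 1 without replicate 2 of the cjiPSCs), with a median of 0.09. CENPF, a kinetochore protein, went from 5.51 and 13.4 to 128 and 119. The sum over this list was 55276 and 55420 in cjiPSCs and 55406 and 56965 in pre-ME, so its level overlapped between the groups.

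In the list of actin, SRF and YAP targets 11 of 21 genes fell and 3 rose with all libraries, but 5 fell and 6 rose without replicate 2 of the cjiPSCs. ANKRD1 had 989 and 3292 in cjiPSCs and 492 and 243 in pre-ME, and its log2 fold change of -2.51 became -1.44 without that library, with an adjusted p of 0.00967 (edgeR). CCN1 rose from 1267 and 1976 to 3820.1 and 3219. Of 11 mitochondrially encoded genes 4 fell with all libraries and none without replicate 2 of the cjiPSCs, where 1 rose. ND2 had 200 and 1793 in cjiPSCs and 276 and 202 in pre-ME, so replicate 2 of the cjiPSCs was high and the other 3 libraries were low.

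**Figure D4:**
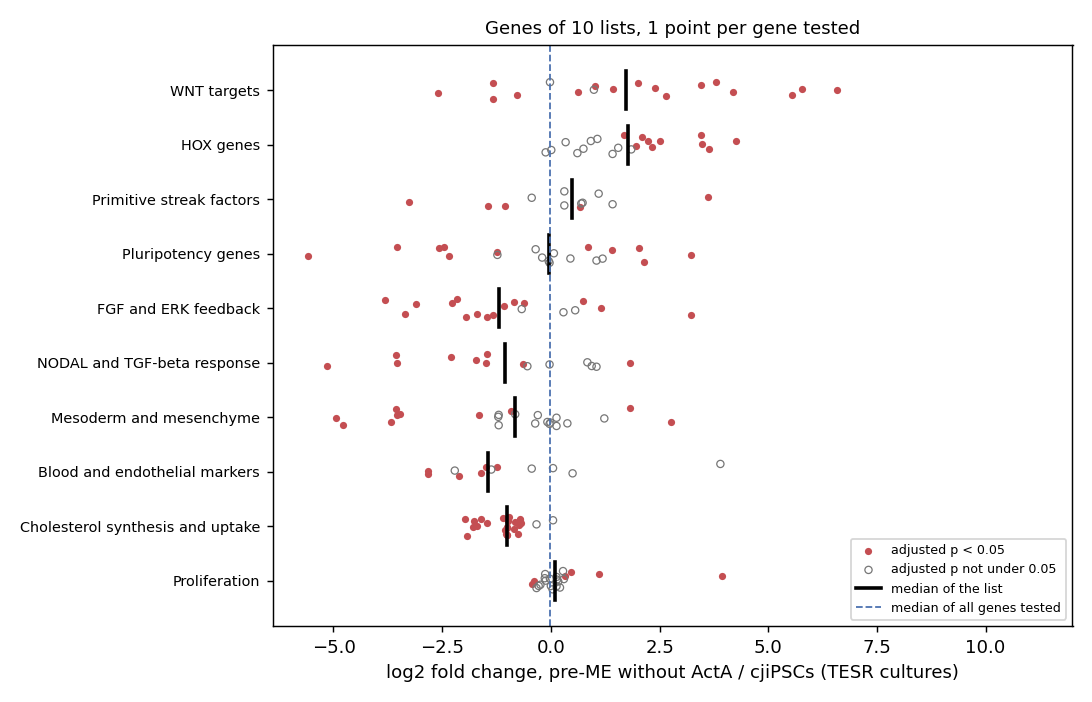
Log2 fold change of pre-ME without ActA over cjiPSCs for the tested genes of 10 lists, with red points for an adjusted p under 0.05, open points for the rest, a black bar at the median of each list and a dashed line at the median of all genes (-0.03). The medians of WNT targets (1.72) and HOX genes (1.77) lie to the right, and those of FGF and ERK feedback (-1.19), NODAL and TGF-β response (-1.07) and cholesterol genes (-1.0) to the left.

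By the rule for the largest rises, the genes were FGF3, GAD1, ZIC1, NOTUM, TTC29, FOSB, SP5, CDX1, RNF43 and TRABD2A. FGF3, an FGF ligand of the early embryo, had 0 reads in both cjiPSC libraries and 123 and 169 normalised counts in pre-ME, at least 47.7-fold higher. With ActA it had 2.19 and 4.78, a log2 difference of -5.34 ± 0.50 from pre-ME without ActA (edgeR, adjusted p = 4.86e-06). GAD1, the enzyme that makes the transmitter GABA, had 17.1 and 5.96 in cjiPSCs and 1328 and 1632 in pre-ME (6.76 ± 0.43, adjusted p = 1.58e-08, edgeR). TRABD2A, a protease that inactivates WNT ligands, had 0.551 and 2.98 in cjiPSCs and 60.4 and 64.1 in pre-ME, at least 20.3-fold higher. TTC29 had 2.20 and 0 in cjiPSCs and 117 and 116 in pre-ME, and its fitted log2 fold change of 6.12 was 10.01 without replicate 1 of the cjiPSCs. NOTUM, SP5, RNF43 and TRABD2A all act to limit WNT signals.

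The largest falls were in IGSF21, NGFR, SLC5A12, CACNG5, TRIM55, KLHDC7A, GALNT9, XIRP1, GPR4 and CHRNA1. NGFR, the low-affinity receptor of neurotrophins, had 1046 and 1849 in cjiPSCs and 6.04 and 4.68 in pre-ME (-8.04 ± 0.40, adjusted p = 9.32e-10, edgeR). IGSF21, a synaptic adhesion protein, had 236 and 284 in cjiPSCs and was at the floor in pre-ME (0.549 and 0.468), at least 171-fold lower. TRIM55 (109 and 177), XIRP1 (192 and 334) and CHRNA1 (97.5 and 68.5) are best known from skeletal muscle, and they had 1.10 and 0.936, 2.74 and 4.68 and 0.549 and 2.34 in pre-ME. GPR4, a receptor that senses protons, had 328 and 328 in cjiPSCs and 7.13 and 4.21 in pre-ME.

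The genes with the highest normalised counts, which are not corrected for gene length, were largely shared. IGFBP2, EEF1A1, HSP90AB1, EEF2, FLNA, GAPDH and VIM were among the 10 genes with a symbol and the highest mean in both groups. IGFBP2 led both, with 53028 and 106619.5 in cjiPSCs and 51879.9 and 52845 in pre-ME (adjusted p = 0.185). SERPINH1, a chaperone of collagen and one of the 10 in cjiPSCs, fell from 19736 and 29572 to 12145 and 11243 (edgeR, adjusted p = 0.000382). NES (nestin) had 15772 and 30629.5 in cjiPSCs and 15845 and 16509.8 in pre-ME.

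To ask whether the response of TESR cultures differed from that of cjPSCM cultures, the difference of the log2 fold changes was tested. It was positive, that is, more upward in TESR cultures, with an adjusted p under 0.05 (edgeR) for 567 of 15797 genes (3.59%) and negative for 466 (2.95%). The 4 libraries of cjPSCM cultures are not shared with the comparison above. Because cjPSCM contains CHIR, the cjPSCM response starts from cells already exposed to it, and its part in the differences was not tested. The log2 difference between the cjiPSC replicates in cjPSCM had an SD of 0.959, the highest of the 10 conditions, and leaving out 1 of the 8 libraries moved the counts to between 229 and 1411 genes higher and between 214 and 1301 lower.

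AXIN2, NOTUM and LGR5 of the WNT targets responded differently in the media, and for SP5 and CDX1 no difference passed the test. AXIN2 had 672 and 808 in cjiPSCs and 1931 and 1697 in pre-ME of cjPSCM cultures, a log2 fold change of 1.33 ± 0.14 there. The response in TESR medium was larger by 2.45 ± 0.20 (edgeR, adjusted p = 5.69e-06), and the levels in pre-ME were closer than those in the cjiPSCs. NOTUM had 11.3 and 10.4 and 105 and 92.1 in cjPSCM, with a difference of 3.40 ± 0.48. LGR5 rose in cjPSCM cultures from 11.3 and 8.89 to 154 and 107 where it fell in TESR cultures, a difference of -5.03 ± 0.53 (adjusted p = 3.75e-05). SP5 (20.7 and 23.7, then 1763 and 1444) and CDX1 (3.77 and 1.48, then 199 and 147) rose by 6.22 and 5.90 in cjPSCM cultures, and the differences between media were -0.45 ± 0.38 and -0.23 ± 0.62, with adjusted p = 0.513 and 0.867.

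CDH1 was high in TESR cjiPSCs and low in each of the other 3 groups. In cjPSCM cultures it had 2.83 and 4.45 in cjiPSCs and 1.77 and 0.991 in pre-ME. Each of these values is at the floor of 3 counts, so no response of CDH1 can be read there. The fitted difference of the responses was -4.43 ± 1.00 (edgeR, adjusted p = 0.0143) and rests on the fall in TESR cultures. This call was lost without replicate 1 of cjPSCM pre-ME (-3.93, adjusted p = 0.267), as were those of BMPER (0.199) and TBX1 (0.0556), and TBX1 had a difference of -5.29 without replicate 2 of cjPSCM cjiPSCs. TBX1 (4.71 and 43.0 in cjPSCM cjiPSCs), SCX (30.1 and 13.3), BMPER (5.65 and 10.4) and MEOX2 (6.59 and 2.96) were likewise lower in cjPSCM cjiPSCs than in TESR cjiPSCs, and their differences of -3.20, -3.83, -3.64 and -4.17 passed the test. KDR fell in both media, with a difference of -0.45 ± 0.27 that did not pass (adjusted p = 0.332).

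The feedback genes DUSP6 and SPRED3 fell in both media but by different amounts. DUSP6 had 2763 and 3019.5 and 936 and 822 in cjPSCM cultures, so its levels in pre-ME were close to those of TESR cultures, and the difference of the responses was -1.67 ± 0.22 (edgeR, adjusted p = 0.000356). SPRED3 had 717 and 642 and 60.1 and 33.7, a larger fall than in TESR cultures (139 and 173, then 62.5 and 60.4), with a difference of 2.47 ± 0.30. Of the 18 genes of this list, 3 had a positive and 5 a negative difference. FGF8 (26.4 and 26.7, then 43.6 and 23.8), CXCR4 (22.6 and 44.5, then 141 and 144) and DLL1 (90.4 and 104, then 110.2 and 110.0) responded more in TESR cultures, by 3.19 ± 0.57, 2.34 ± 0.49 and 2.55 ± 0.41. Without replicate 1 of the TESR cjiPSCs CXCR4 had adjusted p = 0.0874. NANOG had 1760.5 and 1300.0 and 758 and 988 in cjPSCM cultures, a difference of -1.68 ± 0.38 on the log2 scale (adjusted p = 0.0133). This was lost without replicate 1 of the TESR cjiPSCs (0.0514), replicate 1 or 2 of TESR pre-ME (0.0555 and 0.0539) or replicate 2 of cjPSCM pre-ME (0.0657).

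By the rule for the largest differences between media, HAMP, TMEM235, HOXD4, ARSD and FGF3 stood highest and IL2RB, SCN7A, CBLN1, KLHDC7A and NGFR lowest. All 5 of the first had at most 3 counts in both TESR cjiPSC libraries, so their fitted differences depend on the prior count. HOXD4 had 1.88 and 2.96 in cjPSCM cjiPSCs and 0.59 and 0 in pre-ME, at the floor in both, against 24.1 and 25.3 in TESR pre-ME. KLHDC7A had 434 and 536 in cjiPSCs and 5.49 and 5.61 in pre-ME of TESR cultures and 1.88 and 2.96 and then 2.36 and 0.991 in cjPSCM, a difference of -6.11 ± 0.94 (edgeR, adjusted p = 0.00165, and 0.161 without replicate 1 of cjPSCM pre-ME). NGFR had 13.2 and 20.8 and 1.77 and 2.97 in cjPSCM cultures, where its level was low from the start, and its call was lost without either cjPSCM pre-ME library (0.0774 and 0.143).

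Among these 10 genes the calls of 6 more were lost without 1 library. Without replicate 1 of TESR pre-ME, calls were lost in FGF3 (0.064), HOXD4 (0.0577), IL2RB (0.0783), SCN7A (0.0984) and TMEM235 (0.088), with the adjusted p in parentheses. Leaving out replicate 2 of TESR pre-ME ended those of FGF3 (0.0955), HOXD4 (0.0604), IL2RB (0.0905), SCN7A (0.0822) and TMEM235 (0.0921). Those of HOXD4 (0.0529), IL2RB (0.0988), SCN7A (1) and TMEM235 (0.0546) ended without replicate 1 of cjPSCM pre-ME. Leaving out replicate 2 of cjPSCM pre-ME ended those of FGF3 (0.088), HOXD4 (0.0813), IL2RB (0.164) and TMEM235 (0.105). Those of ARSD (0.111), FGF3 (0.221), IL2RB (0.0652), SCN7A (0.0933) and TMEM235 (0.22) ended without replicate 1 of TESR cjiPSCs. Leaving out replicate 1 of cjPSCM cjiPSCs ended that of SCN7A (0.0678). Those of FGF3 (0.133), HOXD4 (0.0648), SCN7A (0.0524) and TMEM235 (0.179) ended without replicate 2 of cjPSCM cjiPSCs. The difference of SCN7A was -3.99 without replicate 1 of cjPSCM pre-ME, that of CBLN1 -10.1 without replicate 2 of cjPSCM cjiPSCs and that of HOXD4 10.09 without replicate 1 of TESR cjiPSCs.

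**Figure D5:**
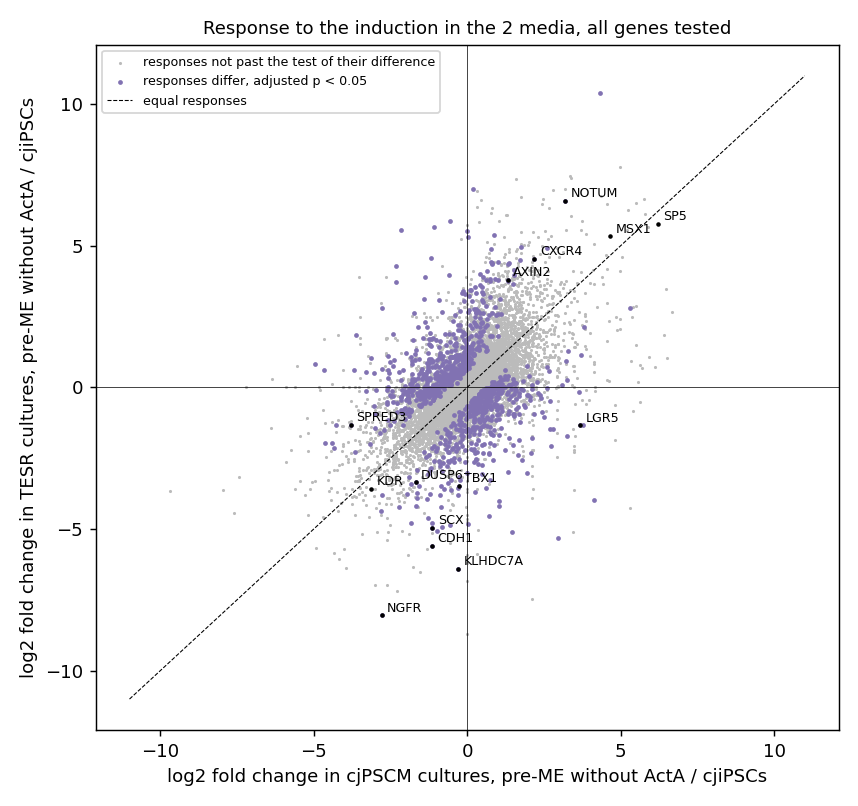
Each point is 1 of 15797 genes, with its log2 fold change of pre-ME without ActA over cjiPSCs in cjPSCM cultures on the horizontal axis and in TESR cultures on the vertical axis, and a dashed line for equal responses. Purple points are the 567 and 466 genes whose responses differed with an adjusted p under 0.05. AXIN2, NOTUM and CXCR4 lie above the line, LGR5, CDH1 and KLHDC7A below it, and SP5 and KDR near it.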

How the data were processed

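RNA-seq of 20 libraries from 10 conditions was used. The authors checked paired-end reads with FastQC 0.11.8, mapped them to calJac4 with STAR 2.7.0a and counted them per gene with HTSeq 0.11, and deposited these raw counts. The authors also deposited a normalised signal, the counts divided by DESeq2 size factors, which is printed here as the level of a gene. The annotation release and the strand setting are not given in the sources used here, so overlapping and antisense genes could not be separated. Lines for reads outside genes and ambiguous reads were left out of library sizes.

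Counts were tested in edgeR 4.0.16 (R 4.3.3) with TMM scaling, filterByExpr, 1 coefficient per condition over all 20 libraries (10 residual degrees of freedom) and quasi-likelihood F-tests with Benjamini-Hochberg correction. The test was checked on simulated counts. Alternatives were DESeq2 1.42.0, its size factors, no filter, a replicate block, thinned counts, the compared libraries alone, glmTreat and leaving out each library.

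The 33 gene lists (568 genes, 477 tested) and the members were chosen with earlier results of these data known. Genes named are members of these lists, the 10 largest changes each way among genes with a symbol, no overlap of the groups and at least 50 normalised counts in both libraries of the higher group, the 10 genes with the highest mean in each group and the 5 largest differences each way between media. Some listed genes are not reported here by name.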

Additional observations from a re-analysis of the deposited data

Results flagged for a closer look

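The following genes of the report responded differently in TESR and cjPSCM cultures by the test of the difference itself (edgeR, adjusted p under 0.05). Values are the log2 fold change in TESR medium minus that in cjPSCM. Among WNT targets, ligands and receptors the differences were in NOTUM (3.40), AXIN2 (2.45), WNT5B (2.32), APCDD1 (1.38), CCND1 (1.18), FZD8 (-1.46), MYC (-1.97), SFRP1 (-2.06) and LGR5 (-5.03). In genes of FGF and ERK signalling they were in FGF8 (3.19), SPRED3 (2.47), SPRY1 (-1.03), SPRY4 (-1.04), DUSP6 (-1.67) and PHLDA1 (-1.67). In NOTCH, retinoic acid and BMP genes they were in DLL1 (2.55), JAG1 (1.93), RARB (0.81), HEY1 (-1.76) and ID3 (-1.02). Lineage factors and markers were CXCR4 (2.34), POU3F2 (2.31), GATA6 (2.08), PGF (-1.99), TBX1 (-3.20), ELAVL4 (-3.34), BMPER (-3.64), SCX (-3.83) and MEOX2 (-4.17). In pluripotency, junction and actin genes they were in CCN1 (1.5), ZEB2 (1.17), NANOG (-1.68), CDH3 (-2.45) and CDH1 (-4.43, at the floor in every cjPSCM library). In cholesterol synthesis they were in CYP51A1 (-0.75) and HMGCS1 (-0.86). By the rule for the largest differences they were in HAMP (7.72), TMEM235 (6.82), HOXD4 (6.59), ARSD (6.42) and FGF3 (6.06), all with at most 3 counts in each TESR cjiPSC library, and in NGFR (-5.26), KLHDC7A (-6.11), CBLN1 (-6.55), SCN7A (-8.11) and IL2RB (-8.29). Many of these calls were lost without 1 library, and those of the last 10 genes are given in the report. For the other genes, leaving out replicate 1 of TESR pre-ME ended the calls of CCND1 (0.12), CDH3 (0.0635), CYP51A1 (0.102), HMGCS1 (0.0934), NANOG (0.0555), RARB (0.0535), SFRP1 (0.139) and SPRY1 (0.0939), with the adjusted p in parentheses. They were, leaving out replicate 2 of TESR pre-ME, CCND1 (0.0721), CDH3 (0.086), ID3 (0.175), NANOG (0.0539), PGF (0.0571), RARB (0.2), SFRP1 (0.126), SPRY1 (0.0903) and SPRY4 (0.169). With replicate 1 of cjPSCM pre-ME left out they were BMPER (0.199), CCND1 (0.07), CDH1 (0.267), CDH3 (0.107), PGF (0.0744), RARB (0.0616), SFRP1 (0.0863), SPRY1 (0.0741), SPRY4 (0.275) and TBX1 (0.0556). Leaving out replicate 2 of cjPSCM pre-ME, they were CCND1 (0.114), CYP51A1 (0.069), HMGCS1 (0.0773), ID3 (0.154), NANOG (0.0657), RARB (0.16), SFRP1 (0.114) and SPRY1 (0.0712). With replicate 1 of TESR cjiPSCs left out they were APCDD1 (0.0539), CCND1 (0.0704), CXCR4 (0.0874), CYP51A1 (0.05), HMGCS1 (0.0564), ID3 (0.096), NANOG (0.0514), RARB (0.14), SFRP1 (0.122), SPRY1 (0.129) and SPRY4 (0.102). The call of ID3 (0.058) also ended without replicate 2 of cjPSCM cjiPSCs. The difference of MYC was -1.16 without replicate 2 of TESR cjiPSCs, that of SPRY4 -0.53 without replicate 1 of cjPSCM pre-ME, that of TBX1 -5.29 without replicate 2 of cjPSCM cjiPSCs, and that of SFRP1 -1.33 and -3.59 without replicate 1 or 2 of cjPSCM cjiPSCs.

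Reads outside annotated genes made up 20.04% of counted reads in replicate 1 of pre-ME without ActA and 20.65% in replicate 2, above the 10.6% and 13.3% of the cjiPSCs. The other 16 libraries had between 12.2% and 23.2%. Among these the lowest was replicate 1 of the cjiPSCs in cjPSCM, and the next had 17.15%. The pre-ME shares thus lay within the range of the others, and those of the TESR cjiPSCs were the low ones. Groups of 2 libraries are too small for a test of single outlying samples.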

How the results depend on the processing

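Large rises and falls of pre-ME over cjiPSCs numbered 717 and 524 and kept within 1.5 times under DESeq2 (647 and 502), its size factors, no filter (847 and 586), thinned counts (490 and 444) and the compared libraries alone. Testing against the fold threshold itself (glmTreat) left 86 and 128. Leaving out 1 library gave 614 to 730 and 496 to 595. An arm then had 1 library, assumed to vary like the other groups. The log2 fold change of ND2 ran from -2.88 to 0.24, the latter without replicate 2 of the cjiPSCs.

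Differences between media numbered 567 and 466. There were 742 and 547 with DESeq2, 991 and 785 with no filter, 367 and 313 with thinned counts, and 70 and 55 with the 8 compared libraries alone. Leaving out 1 library gave 229 to 1411 and 214 to 1301. With against without ActA, 226 and 90 became 45 and 2 with glmTreat and 168 and 56 with thinned counts, and 151 to 203 and 56 to 75 without 1 library. The causes were not tested.

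With the replicate number as a block the counts were 711 and 528 for pre-ME over cjiPSCs, 532 and 446 for the media and 231 and 90 for ActA. Deviations of same-numbered libraries correlated at -0.07 for pre-ME and cjiPSCs over 2 pairs, at -0.20 for the cjPSCM groups and at 0.25 for the groups with and without ActA. With 2 pairs these values do not settle whether the numbers pair the samples, no label says that they do, and the fits without the block are the ones reported.

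Of 276 listed genes past the test, 97 lost their call without 1 of the 4 libraries, and of 106 with a large change 16 did. The shallowest of the 4 libraries had 8590205 reads on genes, which limits genes of few reads. No label gives a date of extraction or sequencing. The TESR pre-ME libraries were registered apart from all other libraries, the TESR cjiPSCs among them. A batch thus cannot be told apart from the comparison of pre-ME with cjiPSCs or from the difference between media.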
